A study of Mus musculus with 677 samples.

Results

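Goblet cells were the 70 cells, of 677 in the series, that the authors' deposited table labels as Goblet, taken by that label alone. They came from the intestinal epithelium of C57BL/6 mice, by SMART-Seq2, a method that makes 1 full-length cDNA library per cell. The groups were wild-type mice (WT) and mice with the genotype Atg16l2-/- (KO), which lack Atg16l2, a paralogue of the autophagy gene Atg16l1. The stated subject of the series was what disease-linked autophagy genes do, studied in knock-out mice. Cell names carry a run (1 or 2) and a code M1 or M2, read here as an animal, so that each genotype had 2 animals. Goblet cells numbered 13 in WT M1, 22 in WT M2, 21 in KO M1 and 14 in KO M2. The labels give no age or sex, and do not say whether the deletion was limited to a tissue.

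Goblet cells are secretory cells of the intestinal epithelium that make the mucus layer. They fold and cross-link the gel-forming mucin Muc2 in the endoplasmic reticulum (ER), load it with O-linked sugars in the Golgi and store it in granules. The fate begins when a progenitor escapes Notch signalling and turns on Atoh1, and Spdef then drives maturation. Paneth cells, the antimicrobial cells of the crypt base, come from the same Atoh1-positive progenitors.

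Values were in TPM, a transcript level corrected for length that sums to the same total in every cell, so the sequencing depth of a cell is unknown. Goblet cells had 4094 to 8965 genes above 0 TPM, with a median of 5817. The ribosomal RNA entry Rn45s took a median of 5.15% to 7.94% of TPM in run 1 Goblet cells of WT M1, WT M2 and KO M1, but 24.03% in those of KO M2, so that this set stood apart. In run 2 the median was 18.2% to 22.6% in all 4 animals. Markers of T and NK cells, B and plasma cells, and myeloid and mast cells summed to means of 5.27, 5.10 and 6.24 TPM in Goblet cells. No gene of these 3 lists passed the floor used below (10 TPM on average and above 0 in 10% of Goblet cells).

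The label was checked against 6 goblet markers: Muc2, Tff3, Agr2, Fcgbp, Spink4 and Zg16. Together they held 0.101% to 50.02% of a Goblet cell's TPM, with a median of 9.02%, against medians of at most 0.199% in the other 8 types. All 6 were higher in Goblet cells than in every other type. 3 cells went against their label. These 3, all from run 2 of KO M1, held 81.9%, 82.5% and 82.96% of their TPM in Paneth markers and 0.193%, 0.210% and 0.101% in goblet markers. Cells labelled Paneth held 3.54% to 84.1% and 0.0395% to 2.41%. Run 2 of KO M1 had 0 cells labelled Paneth, against 1 or 2 in the other animals. The levels by type include these 3 cells, and the main KO comparisons are also given without all Paneth-carrying cells.

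The RefSeq table of promoters (GRCm38.p6) held 3 of the 6 markers, Fcgbp, Muc2 and Agr2, and their 250 bases before the transcription start are shown because these genes were high together in the cells below. Tff3, Spink4 and Zg16 are named only. All 3 lie on the + strand, Fcgbp at chr7:28070986-28071235, Muc2 at chr7:141690090-141690339 and Agr2 at chr12:35992675-35992924. Capitals mark the E-box CAGCTG, a palindrome of the kind that basic helix-loop-helix factors such as Atoh1 can bind.
Fcgbp: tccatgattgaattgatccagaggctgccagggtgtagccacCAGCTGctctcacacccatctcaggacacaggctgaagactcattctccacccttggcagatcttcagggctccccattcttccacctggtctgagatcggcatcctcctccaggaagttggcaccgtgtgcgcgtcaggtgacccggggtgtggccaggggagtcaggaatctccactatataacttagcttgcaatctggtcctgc
Muc2: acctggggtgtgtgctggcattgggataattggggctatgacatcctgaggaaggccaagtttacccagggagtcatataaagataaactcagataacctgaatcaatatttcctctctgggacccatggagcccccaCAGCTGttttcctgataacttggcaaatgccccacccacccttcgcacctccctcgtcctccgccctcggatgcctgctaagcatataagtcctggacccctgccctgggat
Agr2: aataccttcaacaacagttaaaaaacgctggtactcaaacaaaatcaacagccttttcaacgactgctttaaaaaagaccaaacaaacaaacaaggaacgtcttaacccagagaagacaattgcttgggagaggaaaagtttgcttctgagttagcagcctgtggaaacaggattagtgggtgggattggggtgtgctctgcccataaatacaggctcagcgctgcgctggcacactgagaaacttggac
The motif stood once in the Fcgbp window and once in that of Muc2, and these letters were not in the Agr2 window. Of all 32851 promoters of this length, 13.001% held CAGCTG. Of the 25 genes with the largest ratio of Goblet level to the next type (below), 18 were in the table and 6 held it: Ccl9, Chst4, Fcgbp, Guca2a, Muc2 and Pdia5. The forkhead motif TGTTTAC, or GTAAACA on the other strand, was in 1 of the 18 (Guca2a) and in 3.17% of all promoters. TATAAA, or TTTATA, was in 2 (Ccl9 and Muc2) and in 12.4%. A match is a description of these letters and not of a bound site.

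The secretory profile was led by mucus proteins. Because the type labels may rest on these same genes, Goblet cells against the other types are described and not tested. Zg16, a lectin-like protein of the mucus, averaged 80478 TPM in WT M1 and 49599.6 TPM in WT M2, and 59794 TPM in KO M1 and 42123 TPM in KO M2. That is 57999 ± 16644 TPM (SD, n = 4 animals of both genotypes), 142.9 times the 406 TPM of Enterocyte cells, the next type. Tff3, a trefoil peptide of the mucus, stood at 27162 ± 7684 TPM, 13.8 times its level in Enteroendocrine cells. Agr2, the disulfide isomerase needed for Muc2 folding, stood at 25239 ± 4085 TPM, or 34.4 times the next type. The 4 animals lay within a narrow band for Agr2 (20809 to 30038 TPM) and a wide band for Spink4, a protease-inhibitor-like peptide (6994.9 to 26591 TPM, mean 15099.8 ± 8461). Fcgbp, which is cross-linked into the mucus gel, stood at 6055 ± 1033 TPM, and Muc2 at 4919 ± 814 TPM. Their ratios to the next type were 32.6 and 33.03. Without its 5 Paneth-carrying cells, KO M1 averaged 78479 TPM of Zg16, 28177 TPM of Tff3, 25495 TPM of Agr2, 10515 TPM of Spink4, 8822 TPM of Fcgbp and 6541 TPM of Muc2.

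**Figure D1:**
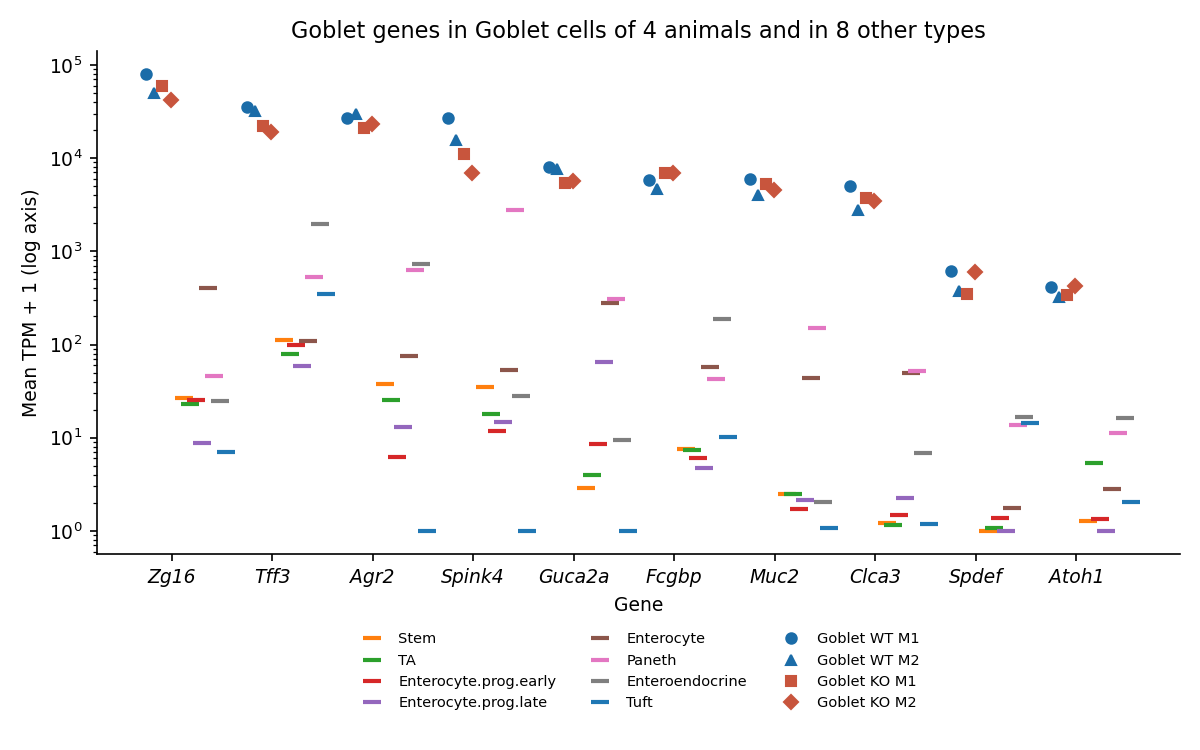
Mean TPM + 1 on a log axis for 10 goblet genes, with 1 point per animal for Goblet cells and 1 dash per other type (mean over its cells). In each of the 10 genes all 4 Goblet points lie above all 8 dashes, and Spink4 in Paneth cells (2772 TPM) comes closest.

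Clca3, the calcium-activated chloride channel regulator of goblet granules, averaged 3723 ± 909 TPM, 72.6 times the next type. The deposited table lists Clca3 and Clca1 as separate rows, and RefSeq gives Clca3 and gob-5 as synonyms of Clca1; the row called Clca1 averaged 2.48 TPM. Muc13, a membrane mucin, was almost as high in Enterocyte cells (1107 TPM) as in Goblet cells (1217 ± 35.3 TPM). Muc4 was low at 15.4 TPM and below its Enteroendocrine level of 115.7 TPM. Muc1 was at 0 in all 70 cells.

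Among secreted peptides and enzymes, Guca2a, the guanylin precursor that regulates ion and water secretion, stood at 6683 ± 1395 TPM and 21.6 times the next type. Its paralogue Guca2b went the other way between types, with 892 TPM in Goblet and 1854 TPM in Enterocyte cells. Klk1, a kallikrein protease, reached 1821 ± 359.01 TPM, and the chemokine Ccl6 1634 ± 356.3 TPM. The phospholipase Pla2g10 (127.3 ± 18.5 TPM) and the tryptase Tpsg1 (354.2 ± 73.6 TPM) were lower in level but among the most restricted, at 80.8 and 50.8 times the next type. Reg4, a lectin, was lower in Goblet (474 TPM) than in Enteroendocrine cells (9251 TPM). Retnlb, a resistin-like antimicrobial of goblet cells, was above 0 in 2 cells only, both of which also carried Paneth transcripts.

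Transcription factors and Notch ligands of the secretory fate were lower in level than the mucus genes, and their ratios to the next type varied. Spdef stood at 483 ± 141.5 TPM, 30.6 times the next type, and Atoh1 at 372.5 ± 51.04 TPM, 24.7 times. Both were above 0 in all 70 cells. Creb3l4, a secretory-pathway factor, stood at 198.1 ± 28.4 TPM and 12.9 times. Gfi1, a repressor downstream of Atoh1, averaged 16.5 TPM and was above 0 in 37 of 70 cells. The Notch ligand Dll1 (185.98 TPM) was 1.54 times its Enteroendocrine level, while Dll4 (66.9 TPM) was below its Enteroendocrine level of 120 TPM. Hes1, the Notch target that represses Atoh1, averaged 5.45 TPM against 100.5 TPM in Stem cells.

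Most listed genes of folding, sugar addition and export were also higher in Goblet cells than in Stem, TA and absorptive cells. A gene was counted as highest in Goblet cells when its mean lay above that of each of 5 types in all 4 animals: Stem, TA and Enterocyte cells and both Enterocyte.prog types (early and late), which had 10 or more cells per animal. Of the 6208 genes of at least 10 TPM on average and above 0 in at least 10% of Goblet cells, 514 (8.28%) were. This floor was set in Goblet cells and so favours them in every list and in the background alike. ER folding and disulfide formation had 28 of 35 such genes and 37 listed, translocation and ER to Golgi transport 31 of 41 (42 listed), mucin O-glycosylation and sugar donors 26 of 34 (40 listed), and granule exocytosis 15 of 22 (29 listed). The lowest of these 4 shares was 68.2% for exocytosis (15 of 22, with 29 listed), against 8.28% of all genes. Enteroendocrine, Paneth and Tuft cells were not part of this count. Against all 8 other types 3.32% of all genes were highest in Goblet cells, and no such share was taken per list. The summed exocytosis genes were higher in Enteroendocrine and Tuft cells than in any of the 5 types, and lower than in Goblet cells. The Paneth sum was below all of these. The lists were chosen with earlier results of these data known. The granule list holds Capn9, Bcas1 and Rep15, which are named below for their large ratios. The shares therefore describe these lists, and the part of that choice in their excess over 8.28% was not tested.

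In the ER list, Txndc5, a thioredoxin-domain disulfide isomerase, led after Agr2 with 2780 ± 550 TPM, 4.10 times the next type. Pdia5, another isomerase, was 14.4 times and Ern2, the goblet-restricted sensor of unfolded protein, 13.97 times the next type. P4hb, the main isomerase, was lower in Goblet (1564 TPM) than in Enterocyte cells (2221 TPM). The chaperone Hspa5 stood at 1209 ± 218.1 TPM, 1.77 times the next type.

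Of the sugar enzymes, Galnt7, which adds GalNAc to peptides that already carry some, was 6.54 times, C1galt1, the core 1 synthase, 5.69 times and its chaperone C1galt1c1 4.08 times the next type. Chst4, a sulfotransferase, was 10.9 times. B3gnt6, the core 3 synthase, was above 0 in 1 of 70 Goblet cells. In the granule list Capn9, a calpain, was 76.03 times, Bcas1 55.9 times and Rep15, a Rab15 effector, 16.96 times the next type. The remaining genes of the 25 with the largest ratios were Fkbp11, Lrrc26, Efcab4a, Liph, Ccl9 and AW112010, at 6.79 to 9.58 times.

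Markers of the Enteroendocrine and Tuft types were scarce. Of 19 enteroendocrine markers, 10 were at 0 in all 70 cells, Chga among them, and only Sct, the secretin precursor (284.2 TPM, against 3355 in Enteroendocrine cells), reached 10 TPM with detection in 10% of cells. Neurog3, the enteroendocrine fate factor, was above 0 in 3 cells, at 3001 and 984 TPM in KO M1 cells and at 1.99 TPM in a WT M1 cell. Of 13 tuft markers measured, 5 were at 0 in all cells, and Cd24a (472 TPM) was the only one above the floor. Enterocyte markers were more widely present, with 11 of 18 above the floor and a summed level of 1364 TPM, against 31952 TPM in Enterocyte cells. Fabp2, a fatty acid binding protein, was above 0 in all 25 cycling and all 39 non-cycling cells, with medians of 574 and 1109.95 TPM. Of the stem markers 6 of 16 passed the floor (sum 406 TPM, against 17934 TPM in Stem cells), and of the Paneth markers 17 of 18 (14 of these 17 also without the Paneth-carrying cells described below).

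Cycling and other Goblet cells differed in their products. A cell was counted as cycling when at least 6 of 12 cell cycle genes, such as Mki67 and Top2a, were above 10 TPM, which is a range of a score and not a type. By this rule 25 cells (35.7%, exact 95% binomial interval 24.6% to 48.1%) were cycling, 39 were not, and 6 were set apart because Paneth markers held over 3% of their TPM. The interval pools the cells of all animals and covers counting error only. By animal the cycling share ran from 23.1% to 45.5%. 45 cells had 0 to 3 of the 12 genes, none had 4 or 5, and 5 cells had 6 or 7. The share in other types ran from 1.72% of Enterocyte to 84.5% of Enterocyte.prog.early cells. Cycling cells had more genes above 0 TPM, with a median of 7070 against 5558 in the other 39, and Rn45s medians of 16.7% and 17.2%. The part of the number of detected genes in the differences below was not tested.

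Goblet markers held a median of 4.46% of TPM in cycling and 17.8% in non-cycling cells. Zg16 differed most among the 6, with medians of 91.1 and 65657 TPM. It was above 0 in 17 of 25 cycling and 35 of 39 non-cycling cells. Its cycling means were 14728 and 24009 TPM in WT M1 and WT M2 and 14059.9 and 894 TPM in KO M1 and KO M2. Its non-cycling means were, in the same order, 111333, 70925, 128583 and 65028 TPM. The non-cycling mean was higher in each of the 4 animals, and the 2 ranges did not overlap.

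Muc2 had medians of 1695 and 6461 TPM, and Clca3 of 639 and 3607 TPM in cycling and non-cycling cells. Tff3 (12128 and 36127 TPM), Spink4 (4599.9 and 16324 TPM), Fcgbp (3122 and 6593 TPM) and Agr2 (17159 and 32634 TPM) differed less. All 6 markers were higher in non-cycling cells in every animal, as were 6.04% of the 6208 genes. The same held for 12 of 16 secreted peptides and enzymes, among them Guca2a (2197 and 7621 TPM) and Ccl6 (47.8 and 1694 TPM). Krt20, a keratin of differentiated epithelium, had medians of 102.8 and 666 TPM.

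**Figure D2:**
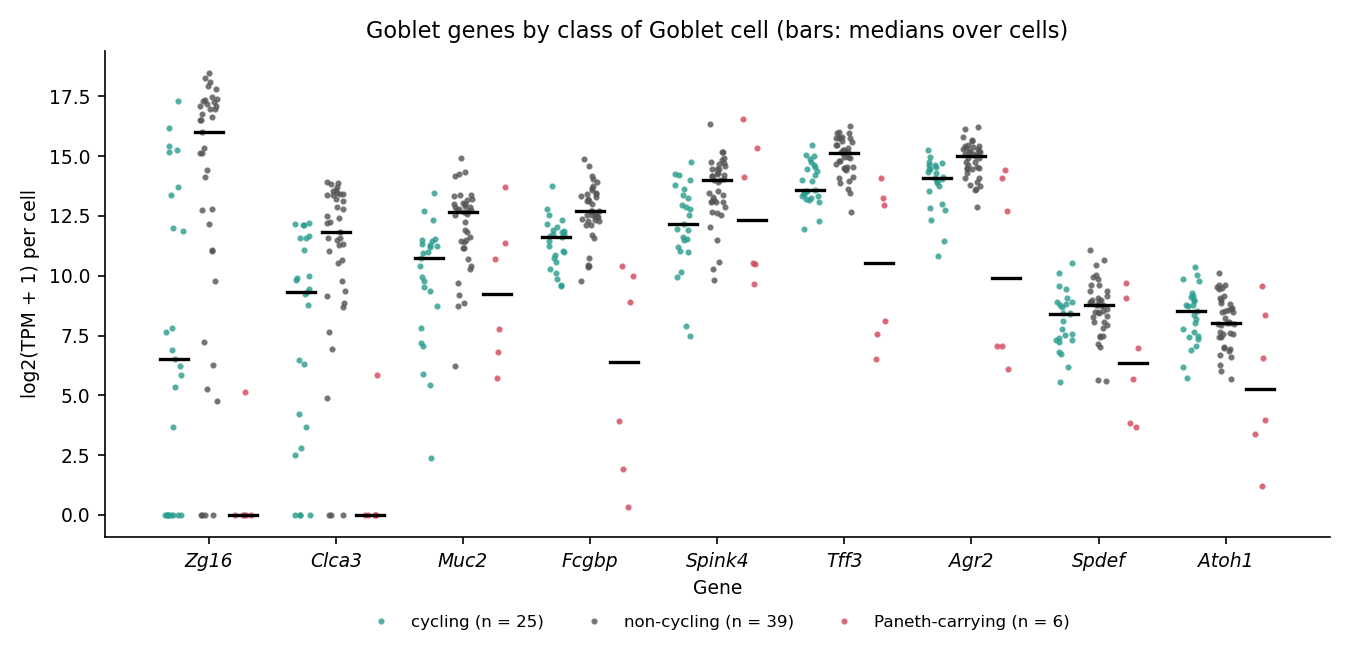
log2(TPM + 1) of 9 goblet genes in single Goblet cells, coloured by class, with black bars at the medians. The bars of Zg16 lie far apart between cycling and non-cycling cells (91.1 and 65657 TPM), while those of Atoh1 and Spdef lie close together.

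The fate factors did not follow the products. Atoh1 had medians of 366.5 TPM in cycling and 260 TPM in non-cycling cells, and Spdef of 334.2 and 434 TPM. By the mean per animal, Atoh1 was higher in non-cycling cells in 3 of 4 animals, against the direction of its medians, and lower in KO M1. The mean of Spdef was higher in non-cycling cells in both WT animals and lower in both KO animals. Both factors were above 0 in every cell of the 2 classes. Dll1 was higher in cycling cells of all 4 animals (medians of 208.6 and 148.5 TPM), and Dll4 in 3 of 4 (83.8 and 23.3 TPM). Of 14 fate genes above the floor, 2 were higher in non-cycling cells of all 4 animals (6.04% of all genes) and 2 in cycling cells (27.6% of all genes).

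The export machinery moved less than its cargo. Of 35 ER folding genes 7, of 41 translocation and transport genes 7, of 34 glycosylation genes 8 and of 22 exocytosis genes 6 were higher in non-cycling cells of all 4 animals, against 6.04% of all genes. Only 1, 1, 1 and 0 genes of these 4 lists were higher in cycling cells of all 4, against 27.6% of all genes. The medians of their log2 differences, non-cycling minus cycling, were 0.17, 0.15, 0.21 and 0.34, against 1.32 for the goblet markers and -0.33 over all genes. Xbp1, a driver of ER expansion, had medians of 490 and 527 TPM, and Ern2 of 206.4 and 224.95 TPM.

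Cycling cells were higher in 1715 of 6208 genes (27.6%) in all 4 animals. This was so for 27 of 31 DNA replication genes above the floor and, beyond the cell cycle, for 6 of 6 MHC class II genes and 24 of 42 ribosomal protein genes. The median log2 difference, non-cycling minus cycling, was -2.36 for MHC class II and -0.31 for ribosomal protein genes. Over all genes it was -0.33, so the ribosomal protein genes differed about as much as all genes. Cd74, the invariant chain that pairs with MHC class II, had medians of 145.2 and 15.02 TPM in cycling and non-cycling cells. H2-Aa, a class II alpha chain, had medians of 54.8 and 0 TPM. Olfm4, a stem cell marker, was above 0 in 18 of 25 cycling and 7 of 39 non-cycling cells.

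The main axis of variation over the 70 cells (15.2% of the variance of 6196 genes) ran the same way. Its positive end was led by Stmn1, Hist1h2ao, Tuba1b and Ube2c, genes of dividing cells, and its negative end held Ccl6, Zg16 and the defensins Defa17 and Defa23. Its score rank-correlated at 0.75 with the number of cycling genes and at -0.58 with the goblet marker share. It also correlated at 0.85 with the number of genes above 0, a measure that the same libraries share.

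Goblet cells with Paneth transcripts numbered 6, 5 from KO M1 and 1 from WT M1. The other 64 cells held at most 2.33% of their TPM in Paneth markers, and the lowest of the 6 held 7.30%. Such cells were also met in absorptive types. Paneth markers held over 3% of TPM in 1 Enterocyte.prog.early cell (36.1%), 1 Enterocyte.prog.late cell (35.4%) and 1 Enterocyte cell (8.38%). 3 of the 6 are the cells described above that go against their label. In those 3, Fcgbp stood at 0.24, 14.4 and 2.83 TPM, Zg16 at 0, and Atoh1 at 9.32, 1.29 and 14.8 TPM, while Defa24 stood at 221349, 228413 and 243292 TPM. Defensin genes are near-identical copies, so how their reads were shared among them is uncertain.

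The other 3 held transcripts of both marker sets, and whether they were doublets (libraries of more than 1 cell) was not tested. A KO M1 cell of run 2 had 46.5% of its TPM in Paneth and 6.05% in goblet markers, a WT M1 cell of run 1 had 24.3% and 14.3%, and a KO M1 cell of run 1 had 7.30% and 5.23%. Their Muc2 levels were 2650 TPM, 13207 TPM and 1678 TPM, and their Defa24 levels 269085, 134486 and 32642 TPM. Mmp7, the protease that activates Paneth defensins, stood at 3805, 12406 and 9577 TPM in them. These Mmp7 levels were over the Paneth cell mean of 883 TPM, but such levels were not particular to these 3 cells. Outside the 6, Mmp7 reached 11378 TPM in a cycling and 4995 TPM in a non-cycling cell. The 3 cells against their label held 954, 1670 and 1010 TPM. Spink4 reached 94832 TPM in the WT M1 cell, the highest of all 70 cells, and Spdef 533 TPM.

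**Figure D3:**
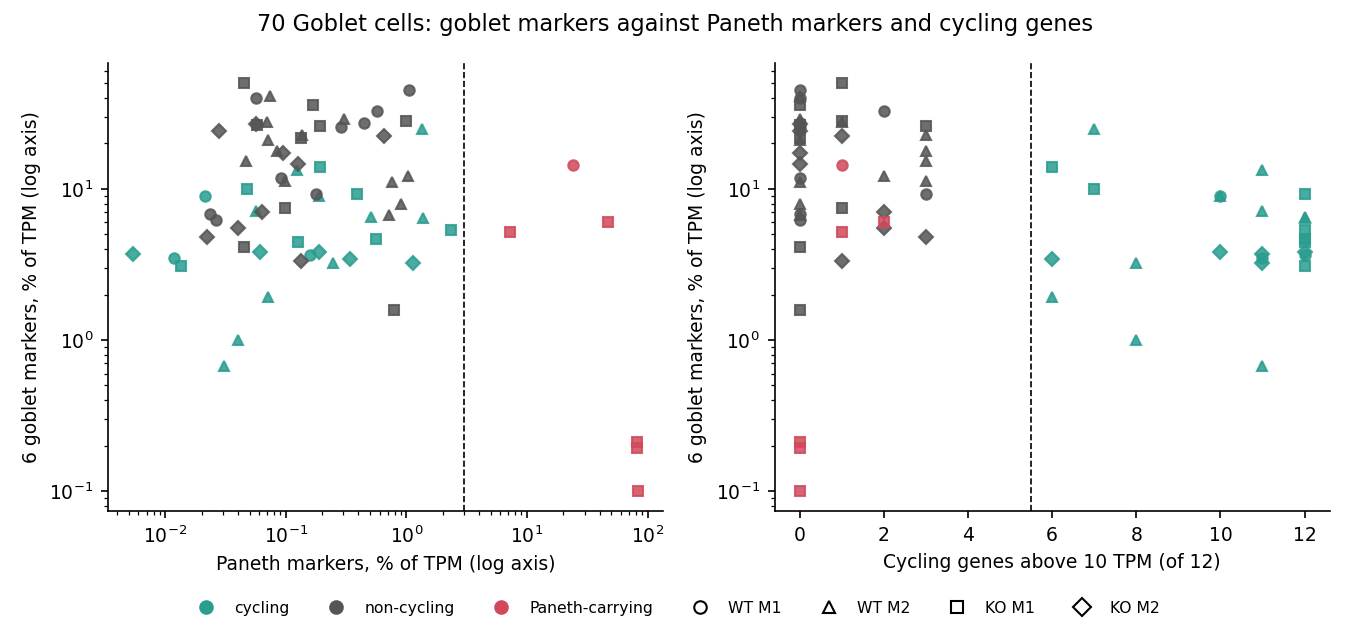
Share of TPM in 6 goblet markers (log axis) for each of the 70 Goblet cells, against the share in Paneth markers (left, log axis, dashed line at 3%) and the number of cycling genes (right, dashed line between 5 and 6). The 6 Paneth-carrying cells lie right of the line on the left, 3 of them at 0.101% to 0.210% goblet markers.

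Zg16 and Clca3 were at or near 0 in all 6 of these cells. Zg16 was at 0 in 5 of them and at 34.4 TPM in the WT M1 cell, and Clca3 was at 0 in 5 and at 56.7 TPM in 1. Reg4 was above 0 in all 6, from 317.9 to 13448 TPM, against 8 of 25 cycling and 17 of 39 non-cycling cells. Itln1, an intelectin shared by Paneth and goblet cells, was above 0 in 5, up to 19313 TPM. The share of such cells was 7.69% in WT M1, 0% in WT M2, 23.8% in KO M1 and 0% in KO M2, and 3 of the 5 cells of KO M1 are those against their label. It did not differ between genotypes by an exact two-sided permutation test over animals (p = 1), for which 2 animals against 2 allow no p below 0.333.

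Paneth genes were also met outside the 6 cells, at a level that differed by gene. Lyz1, the Paneth lysozyme, was above 0 in 19 of 25 cycling and 30 of 39 non-cycling cells, with medians of 112.05 TPM and 156.2 TPM. Its means per animal ran from 27.1 to 1709.7 TPM in cycling and from 258.3 to 1352 TPM in non-cycling cells, against 32669 TPM in Paneth and 126.7 TPM in Stem cells. Mmp7 was above 0 in 16 of 25 cycling and 26 of 39 non-cycling cells. Its mean over non-cycling cells was 1404 and 892 TPM in the WT animals and 829 and 293.1 TPM in the KO animals. Its mean over cycling cells was 311.6 and 594 TPM in the WT animals and 2809 and 628 TPM in the KO animals. The order of the genotypes was thus opposite in the 2 classes, and neither was tested. The highest of these means in each class was over the Mmp7 mean of Paneth cells given above.

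For KO against WT, Atg16l2 itself was above 0 in 2 of 35 WT Goblet cells, both cycling cells of WT M2 (12.6 and 32.8 TPM), and in 0 of 35 KO Goblet cells, a count that allows its detection in up to 8.57% of such cells, for counting error alone. This bounds detection and not expression, since most WT cells were at 0 as well. Over all types it was above 0 in 11.9% of cells of WT M1, 10.8% of WT M2 and 0 of either KO animal. Its paralogue Atg16l1 averaged 16.4 and 15.7 TPM in WT Goblet cells, and 19.9 and 18.98 TPM in those of KO (log2 difference 0.26, SE 0.47, adjusted p = 0.975, limma). So few Goblet cells of WT mice held the transcript that the genotype could be checked on the whole series but not on Goblet cells.

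In Goblet cells 1 gene of 6208 passed limma at a Benjamini-Hochberg adjusted p of 0.05. It was lower in KO (0.0161%), and 0 were higher (0%), while 6.07% of genes had an unadjusted p below 0.05. The p-values measure the spread between 2 animals per genotype. Olfm4 fell from 292.9 and 321.4 TPM in WT to 67.4 and 48.8 TPM in KO (log2 difference -2.40, SE 0.31, adjusted p = 0.0225). The 2 genotypes did not overlap, but few cells carried the level. Above 0 were 5 of 13 cells in WT M1, 10 of 22 in WT M2, 5 of 21 in KO M1 and 7 of 14 in KO M2, and the highest cells of WT M1 and WT M2 held 3372 and 4751 TPM. Without the highest cell of each animal the difference was -1.64 with an adjusted p of 0.443. In run 2 alone it was 0.61, the other direction, with WT M1 at 0 and WT M2 at 229.03 TPM. Without the Paneth-carrying cells 1 other gene, lower in KO, passed limma (adjusted p = 0.0408). The adjusted p of Olfm4 was 0.0738 without those cells and 0.184 without the 3 cells against their label. Without WT M1 it was 0.082, without WT M2 0.292, without the run 1 cells of KO M2 0.557, and without the trend in limma's variance 0.911. The counts of passing genes also hung on single animals, with 22 higher without KO M2 and 24 lower without KO M1.

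The goblet markers themselves did not pass the test. Spink4 averaged 26591 and 15784 TPM in the WT animals, against 11029 and 6994.9 TPM in KO. Both KO animals lay below both WT animals (log2 difference -1.22, SE 0.26, adjusted p = 0.501), as in 1248 genes (20.1%). Run 1 alone gave -1.45 and run 2 alone -0.50. With Rn45s removed and TPM rescaled, the adjusted p of Spink4 in limma was 0.0291, at a difference of -1.09. Without the Paneth-carrying cells the difference was -1.08, with an adjusted p of 0.770 in limma. Leaving out 1 animal gave -0.85 without WT M1, -1.60 without WT M2, -1.55 without KO M1 and -0.89 without KO M2. Tff3 showed the same order, with WT at 35380 and 31812 TPM against KO at 22338 and 19119 TPM (-0.70, SE 0.17, adjusted p = 0.501). In run 2 its genotypes overlapped and the difference was -0.08.

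Agr2 (-0.38) and Guca2a (-0.52) were also lower in both KO animals, with adjusted p of 0.782 and 0.606 in limma. Muc2 overlapped, with 5896 and 4013 TPM for WT against 5208 and 4560.4 TPM for KO (log2 difference 0.00, SE 0.22). Zg16 overlapped too (-0.33, SE 0.23). Fcgbp went the other way, from 5845 and 4678 TPM in WT to 6836 and 6861 TPM in KO (0.39, SE 0.19, adjusted p = 0.826). The log2 of the summed markers was 17.47 and 17.05 in WT and 16.94 and 16.65 in KO, a difference of -0.46 (exact permutation p = 0.333, two-sided, the smallest possible). Run 2 alone gave 0.10, and without the Paneth-carrying cells the genotypes overlapped at -0.31. Of 16 secreted peptides and enzymes, 7 were lower in both KO animals (43.8%, against 20.1% of all genes) and 0 higher, with a median difference of -0.23. Without the Paneth-carrying cells 5 were lower (14.9% of all genes) and the median was -0.12, and in run 2 it was -0.08.

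**Figure D4:**
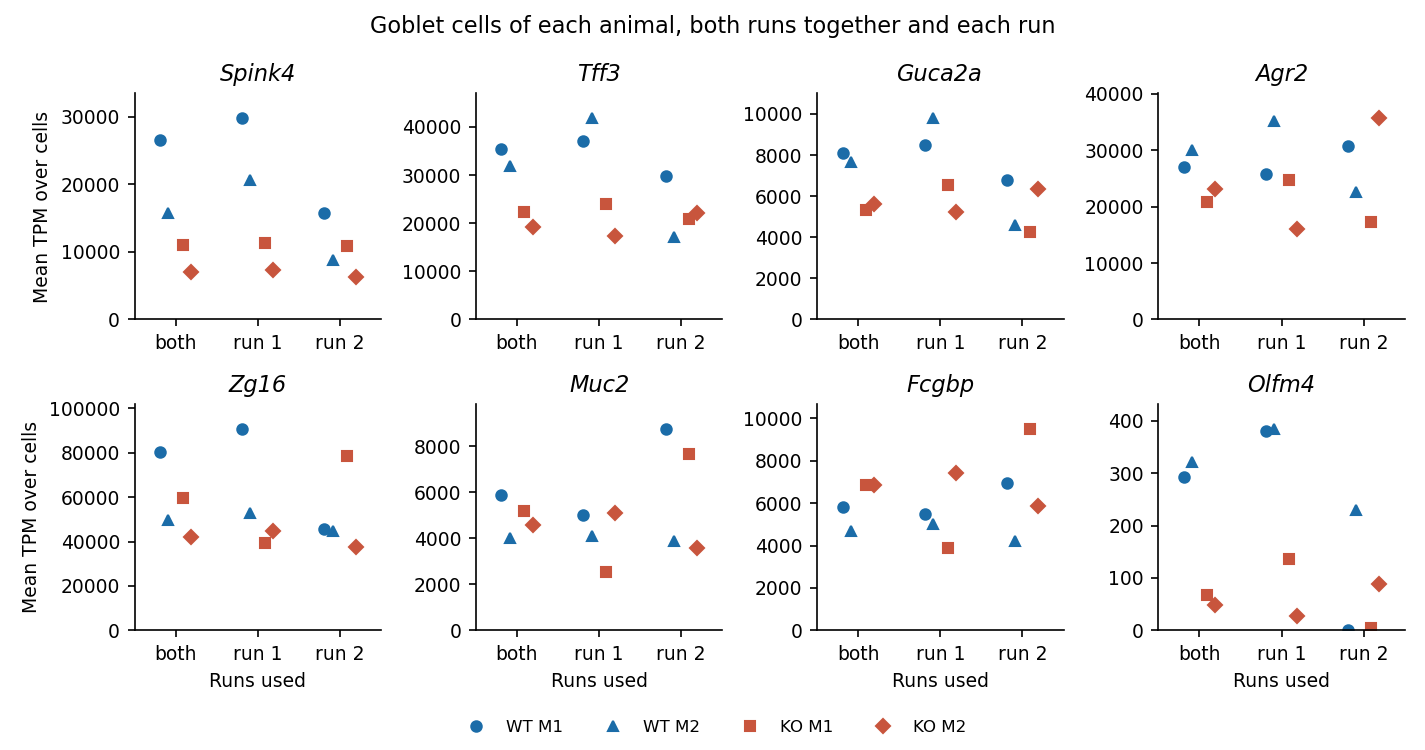
Mean TPM over the Goblet cells of each animal for 8 genes, with both runs together and each run alone. For Spink4 both KO points lie under both WT points in the pooled values and in run 1, and the genotypes overlap in run 2.

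Other genes whose KO animals both lay above both WT animals (974 genes, 15.7%) included Stard13. It averaged 1.52 and 3.04 TPM in the WT animals, against 23.6 and 24.8 TPM in KO (log2 difference 2.98, SE 0.78, adjusted p = 0.555). It was above 0 in 2 of 13 cells of WT M1, 7 of 22 of WT M2, 14 of 21 of KO M1 and 12 of 14 of KO M2, with a difference of 2.48 in run 1 and 3.51 in run 2. The aldo-keto reductase Akr1b10 had WT levels of 17.5 and 13.9 TPM and KO levels of 43.01 and 46.1 TPM, and the aquaporin Aqp11 at 12.5 and 14.9 against 29.1 and 63.5 TPM. Both had the same adjusted p of 0.579 in limma and the same direction in each run. Defa5, Itln1, Pla2g2a, Reg1, Rbp2, Pcid2 and Aurka completed the 10 genes with the smallest p in this direction, at 1.24 to 4.31, none passing. Defa5 (4.31) was 2.51 and Itln1 (1.24) was -0.049 without the Paneth-carrying cells.

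In the opposite direction, energy and ribosomal genes held 7 of the 10 smallest p-values: Ndufs6, Atp5e, Uqcr11 and Ndufa3 of the respiratory chain, and Rps27, Rps28 and Rpl38. Ndufs6, a complex I subunit, averaged 240.1 and 218.6 TPM in the WT animals, against 89.5 and 98.8 TPM in KO (log2 difference -1.28, SE 0.29, adjusted p = 0.501). Atox1, a copper chaperone, had WT levels of 205.98 and 292.9 TPM and KO levels of 84.4 and 84.7 TPM (-1.53). Rps27 had the largest difference of the 3 ribosomal genes (-2.09, adjusted p = 0.368), but was above 0 in 3 of 13 cells of WT M1 and 14 of 22 of WT M2.

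Over the whole lists, 42 of 44 respiratory chain genes and 37 of 42 ribosomal protein genes were lower in both KO animals, against 20.1% of all genes, and 0 of either passed the test. Their median log2 differences were -0.72 and -0.44, against -0.01 over all genes. The mean log2 level of the respiratory chain genes was 8.44 and 8.68 in WT M1 and WT M2, and 7.85 and 7.71 in KO M1 and KO M2. The medians were negative in each run (respiratory chain -0.76 and -0.36, ribosomal protein -0.44 and -0.35), while the median of all genes was 0.25 in run 1 and -0.36 in run 2. In run 2 both medians were thus close to that of all genes. Without the Paneth-carrying cells the medians were -0.61 and -0.35, with 36 of 44 and 33 of 42 genes lower in both KO animals against 14.9% of all. Without the run 1 cells of KO M2, whose Rn45s share stood apart, the respiratory chain median was -0.69.

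**Figure D5:**
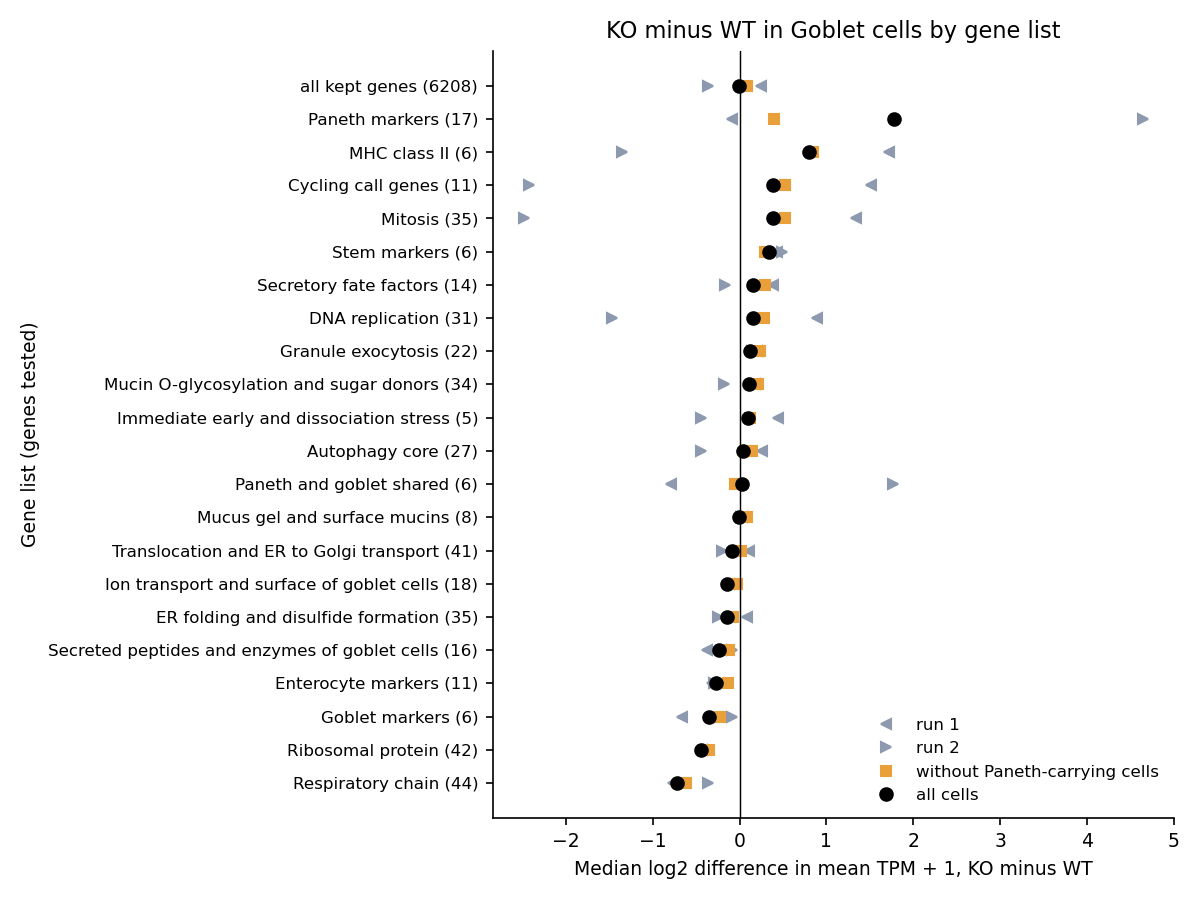
Median log2 difference, KO minus WT, over the genes of each list with at least 5 genes tested in Goblet cells (number tested in brackets), for all cells, each run and without the Paneth-carrying cells. Respiratory chain and ribosomal protein genes lie lowest at -0.72 and -0.44. Paneth marker, mitosis and MHC class II medians change sign between the runs, as do those of several other lists and of all genes (0.25 and -0.36).

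The secretory machinery showed little by genotype. Median differences were -0.15 over 35 ER folding genes, -0.09 over 41 translocation and transport genes, 0.11 over 34 glycosylation genes and 0.12 over 22 exocytosis genes. None of these genes passed the test. Of 14 fate genes 13 had a positive difference, as did 3076 of all 6208 genes. Their median was 0.16, with 0.38 in run 1 and -0.16 in run 2, and 1 lay above WT in both KO animals (7 without the Paneth-carrying cells, where 22.9% of all genes did). Atoh1 averaged 412 and 320.9 TPM in the WT animals, against 336.5 and 420.04 TPM in KO. Spdef levels were 614 and 373.7 TPM for WT, against 347.6 and 596 TPM for KO, so that both factors overlapped.

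Autophagy genes had a median difference of 0.04 over 27 genes. Of these, 4 were higher in both KO animals (14.8%, against 15.7% of all genes) and 7 lower (25.9%, against 20.1%), and none passed the test. Wdr45b, a phosphoinositide-binding autophagy protein, had the smallest p (0.035 unadjusted, log2 difference -1.01), and Nbr1, a selective autophagy receptor, the next (0.96). Map1lc3b and Sqstm1, which mark and load autophagosomes, differed by 0.22 and 0.23.

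Paneth markers had a median difference of 1.77 over 17 genes, which was 0.40 over 14 genes without the Paneth-carrying cells and -0.08 in run 1. Summed Paneth markers averaged 20931 and 3767 TPM in WT M1 and WT M2, and 146365 and 2100 TPM in KO M1 and KO M2. The high KO value is thus that of KO M1. MHC class II genes had a median of 0.80, with 1.72 in run 1 and -1.36 in run 2, and 0 of 6 lay above WT in both KO animals.

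The share of Goblet cells among all cells was 7.74% (exact 95% binomial interval 4.18% to 12.9%) in WT M1, 13.2% (8.44% to 19.3%) in WT M2, 12.2% (7.72% to 18.1%) in KO M1 and 8.24% (4.58% to 13.4%) in KO M2. The genotypes overlapped (exact permutation p = 1). Without the Paneth-carrying cells the shares of WT M1 and KO M1 were 7.14% and 9.30%. The intervals cover counting error only, and a share of sequenced cells depends on how cells were collected. Cycling cells made up 23.1% and 45.5% of Goblet cells in WT and 33.3% and 35.7% in KO (exact permutation p = 1). The runs differed in direction. In run 1, cycling cells were 2 of 10 and 4 of 13 in WT and 6 of 10 and 4 of 9 in KO. In run 2 they were 1 of 3 and 6 of 9 in WT and 1 of 11 and 1 of 5 in KO. Mitosis genes had a median KO difference of 1.34 in run 1 and -2.48 in run 2.

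Whether a KO difference in Goblet cells was unlike that in other epithelial cells was tested on the difference, per animal, between Goblet cells and the mean of the 5 well-filled types. Of 6208 genes, 0 (0%) passed limma at an adjusted p of 0.05 and 3.53% had an unadjusted p below 0.05. Olfm4 was among the lowest: its Goblet minus other log2 value was 0.19 and 0.10 in WT and -4.47 and -2.70 in KO (difference -3.73, SE 0.63, adjusted p = 0.998). Stard13 stood at -1.02 and 0.22 in WT and 2.40 and 2.74 in KO (2.97, adjusted p = 0.998). Mettl22, Defa6, Pcid2 and Cldn4 on the higher side and Mcts2, Zfp952, Wdr20a and Plk1s1 on the lower side had the other smallest p-values without overlap. Respiratory chain genes had a median of -0.37 on this scale and goblet markers of -0.96, against -0.05 over all genes, and 0 of 44 and 1 of 6 had an unadjusted p below 0.05. In Goblet cells alone the marker median was -0.35. In the 5 other types the 6 markers summed to 96.5 to 740 TPM, against 136473 TPM in Goblet cells. The part of these low levels in the -0.96 was not tested.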

How the data were processed

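Single-cell libraries were made with SMART-Seq2, per the labels' protocols, which also name a 10X Genomics kit. Alignment and expression estimation used Bowtie, TopHat and RSEM, per the submitters' processing notes; versions, genome build and the way cell types were assigned are not given in the sources used here. Deposited by the authors were TPM values for 23420 genes in 677 cells (column sums 999999.17 to 1000000.78), so no depth is kept. Each column belonged to a labelled cell, 0 being unmatched, 0 pairs of columns were identical, no cell was removed and no doublet caller was run.

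For each animal, mean TPM over its Goblet cells was taken as log2(TPM + 1), for genes of at least 10 TPM on average and above 0 in at least 10% of Goblet cells (6208). These were fitted for KO minus WT in limma 3.58.1 (R 4.3.3; lmFit, eBayes with trend, residual df 2), two-sided, Benjamini-Hochberg adjusted, and shares by exact permutation over animals. Summaries used Python 3.11.15 (pandas 2.3.3, scipy 1.17.1). Fold ratios between types are the Goblet mean over 4 animals against the other type's mean over cells. Whether M1 of run 1 and of run 2 is the same animal is not stated, and p-values measure only the spread between these samples. The limma procedure was also run on simulated data, in which the cells of all animals were drawn from a common pool of Goblet cells. That run held no difference between animals or runs, so it cannot speak for the spread between them.

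Named for KO against WT were Atg16l2, Atg16l1, passing genes and otherwise up to 10 per direction with the smallest p among genes whose animals did not overlap (no Gm, Rik or clone names), and for Goblet minus other types up to 5 per direction. Named against other types were the 25 genes with the largest ratio among those of at least 50 TPM, above 0 in at least 50% of Goblet cells and highest in all 4 animals. List members beyond these were chosen after their values were seen. The members, 28 gene lists and tests were chosen with earlier results of these data known. Lists with no result in the text were summed per type only. Alternatives were other pseudocounts (0.1 and 10), filters, normalizations, thresholds of the classes, each run, left-out animals or cells, and a replicate block.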

Additional observations from a re-analysis of the deposited data

Results flagged for a closer look

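The share of cycling Goblet cells moved in opposite directions in the 2 runs. In run 1 both KO animals lay above both WT animals, with a difference of 26.8 percentage points, and in run 2 both lay below, with a difference of -35.5 percentage points. The shares rest on 3 to 13 Goblet cells per animal and run, and the difference between the runs was not tested.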

How the results depend on the processing

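Depth is not kept in TPM, and 2 animals per genotype limit every comparison. Only Olfm4 passed the main test and so had a call to lose. Of its 21 alternatives, 7 kept direction and call, 13 lost the call and 1 reversed. Over 409 values of 20 named genes under the alternatives, those 13 lost the call, 28 gained it, 5 reversed and the others kept direction and call. The 5 were Olfm4 in run 2 (0.61), Itln1 with log2 values averaged over cells (-0.73) and without the Paneth-carrying cells (-0.049), and Aurka in run 2 (-2.38) and with 8 combinations of run and animal as units (-0.053). Genes higher in KO (0 in the main test) numbered 1 with log2 values averaged over cells, 5 in run 2, 4 with Rn45s removed, a setting chosen after seeing the data, and 0 to 22 leaving out each animal. Genes lower in KO (1) numbered 0 with no filter, quantile normalization, run 1, run 2, the mean of run means, 8 units, no run 1 cells of KO M2, no trend, no highest cell of each animal, or (chosen after seeing the data) no 3 cells against their label. They numbered 2 with a 50 TPM filter, 8 with log2 values averaged, 3 with Rn45s removed and 0 to 24 leaving out each animal. With a replicate block they were 18 higher and 30 lower, but the numbers do not pair the animals: M1 minus M2 correlated at 0.0663 between genotypes over 6208 genes. For the difference from 5 other types, log2 averaging gave 1 passing gene. The Goblet share difference was 2.04 points in run 2 and -2.95 to 2.48 leaving out each animal. The Paneth-transcript share ran from -3.85 to 19.96 points leaving out each animal. The cycling share was -3.53 points with at least 8 of 12 genes, -35.5 in run 2 and -10.9 to 11.4 leaving out each animal. The goblet marker sum was 0.10 (log2) in run 2. Genes highest in Goblet cells (8.28%) were 3.32% against all 8 other types and 5.03% in run 2, all 25 named genes among them in both. The cause of these changes was not tested.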
